A study of Arabidopsis thaliana with 6 samples.

Results

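Peaks of HID1 chromatin capture were examined where they fell in pseudogene entries on the chromosome arms of Arabidopsis thaliana. HID1 is a noncoding RNA, and the study asked how it promotes seed germination controlled by phytochrome B, a photoreceptor that red light switches on. The material was seed of the Col-0 ecotype, given 5 min of red light and then 48 h of darkness. In the assay, called ChIRP, antisense probes with a biotin tag pull down an RNA together with the chromatin cross-linked to it. Of the 6 libraries in 3 groups, the 2 made with tagged probes gave the peak lists used here, and the 2 mock libraries with untagged probes and the 2 input libraries were not used here. One probe library came from seeds fixed with 1% formaldehyde (replicate 1) and the other from seeds fixed with 1% glutaraldehyde (replicate 2), so cross-linker and library cannot be told apart. With 1 library for each cross-linker there is no replicate check and no test between them, and every value below describes these libraries.

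A peak belonged to the set if its midpoint lay in the body of an entry that the RefSeq gene table lists as a pseudogene, in no protein-coding or noncoding gene body, and outside the pericentromeric intervals. Those intervals were 11.5 to 17.7 Mb on chromosome 1, 1.1 to 7.2 Mb on chromosome 2, 10.3 to 17.3 Mb on chromosome 3, 1.5 to 6.3 Mb on chromosome 4 and 9 to 16 Mb on chromosome 5. The rule found 158 of the 10863 deposited peaks, namely 90 of 4557 formaldehyde peaks and 68 of 6306 glutaraldehyde peaks. The rest of the arms held 2874 formaldehyde and 5150 glutaraldehyde peaks. The members were chosen by the measured positions of the peaks in the same libraries, so the counts that follow from position are given as a description.

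A pseudogene is a stretch of DNA that resembles a gene and is thought not to make its protein. In plant gene tables this label can also cover remains of transposable elements, the mobile sequences that plants silence through DNA methylation guided by small RNAs and through repressive histone marks. Most such elements in Arabidopsis crowd around the centromeres, and those on the arms lie as islands among active genes. The gene table gave 16 of the 571 arm pseudogene entries a symbol other than the locus tag. Of these, 8 were names of retrotransposons, 7 of them SADHU noncoding retrotransposons, and 5 were MUSTANG genes (MUG), known as genes that arose from transposases. The table gives the other 555 a locus tag and no symbol. The synonyms of 5 of them name a transfer RNA, and for the rest no kind is given here.

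The 90 formaldehyde members made up 3.04% of the arm peaks of that library (exact binomial 95% interval 2.45 to 3.72%), while pseudogene bodies made up 1.47% of the arm length, 1.29 Mb of 88.0 Mb. The share was 2.07 times that of the length (interval 1.67 to 2.53). The 68 glutaraldehyde members made up 1.30% of the arm peaks (1.01 to 1.65%), 0.886 times the share of the length (0.689 to 1.12). Intervals here and below cover counting error only. Peaks in copies of the same repeat would not be independent of each other, and such copies were not identified among the entries. How reads that align to several copies were placed is not stated in the sources used here, and its part in these shares was not tested.

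Per megabase of pseudogene body the formaldehyde library had 69.5 midpoints, against 41.9 in protein-coding bodies and 14.4 outside all listed bodies. The glutaraldehyde library had 52.5, 59.9 and 57.5. Pseudogene bodies thus had the highest density of these 3 classes with formaldehyde and the lowest with glutaraldehyde. Transcribed pseudogene bodies, a separate biotype, had 64.2 with formaldehyde, close to the pseudogene bodies, and 72.3 with glutaraldehyde. Noncoding bodies had 26.7 and 71.8. No difference between classes was tested.

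Within each list, the score deposited by the authors ranks a peak by the caller's p-value, and higher scores stand for smaller p-values. Formaldehyde members scored 50.6 to 626.07, with a median of 77.4, against a median of 71.0 for the other arm peaks. A score of 100 or more was held by 29 of the 90 (32.2%, interval 22.8 to 42.9%), beside 21.4% of all arm peaks in that library. Glutaraldehyde members scored 50.17 to 238.26 with a median of 73.2, against 72.2 for the other arm peaks, and 16 of 68 (23.5%, interval 14.1 to 35.4%) reached 100, beside 22.7% of all arm peaks. Among the 100 highest scoring arm peaks, 9 were members with formaldehyde and 1 with glutaraldehyde, beside 3.04% and 1.30% of all arm peaks. The bulk of scores overlapped in every class. The upper quartile of formaldehyde members was 116, against 94.3 for the other arm peaks of that list, while the lower quartiles were 61.2 and 58.4.

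**Figure D1:**
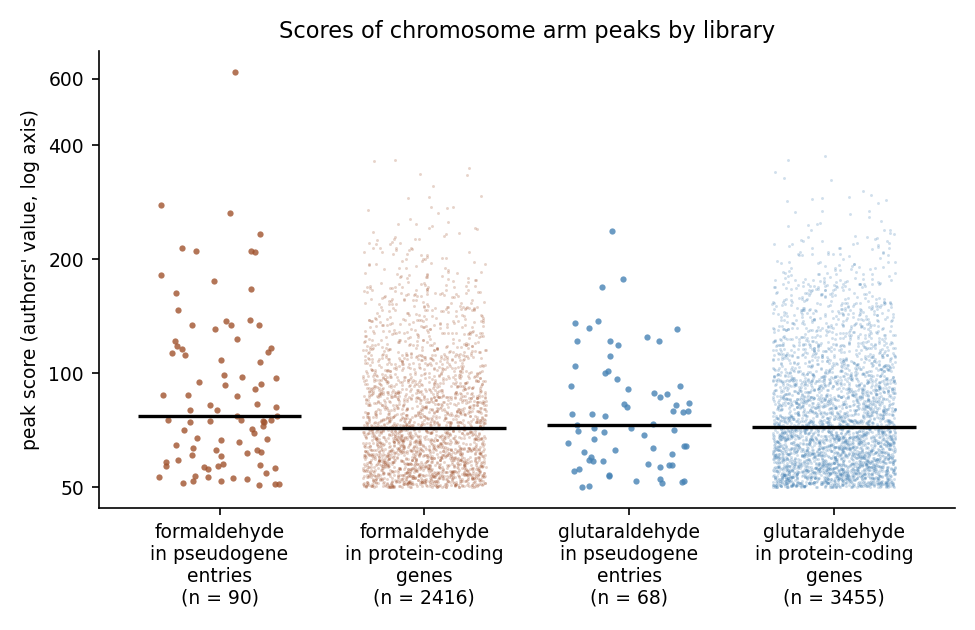
Score of each chromosome arm peak (vertical log axis, the authors' value) with its midpoint in a pseudogene entry or in a protein-coding gene, for the formaldehyde (brown) and glutaraldehyde (blue) libraries; each point is 1 peak and the black line is the median. The medians of pseudogene members were 77.4 and 73.2, and 1 formaldehyde member at 626.07 stood above all other points.

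Formaldehyde members were also wide. Their median width was 1103 bp (quartiles 772 and 1531 bp), against 818 bp for the other arm peaks, and 56.7% of them spanned at least 1000 bp against 29.8%. Glutaraldehyde members had a median width of 609.5 bp (574.5 to 744 bp), against 637 bp for the other arm peaks.

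The highest scoring arm peak of the formaldehyde library lay in a pseudogene entry. It spanned 9188632 to 9191754 on chromosome 2 (TAIR10), in AT2G21460, with a score of 626.07, rank 2 of all 4557 formaldehyde peaks. It covered 50.8% of that entry of 6154 bp, and a second member with a score of 69.59 lay at 9194092 to 9194749, at the upper end of the same entry. No glutaraldehyde member lay in AT2G21460.

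The next 2 formaldehyde members both lay on the same arm of chromosome 5, and both entries were also hit with glutaraldehyde. AT5G07505 held a peak from 2374224 to 2377338 with a score of 278.76, which covered 93.5% of the entry. AT5G07215 held one from 2259565 to 2262658 with a score of 264.41. These peaks lay 6.62 and 6.74 Mb from the pericentromeric interval of chromosome 5, far from its edge.

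The other 7 of the 10 highest formaldehyde members lay in AT5G40605 (score 233.13), AT3G60170 (213.77), AT1G48290 (210.21), AT1G22560 (209.75), AT1G54430 (209.53), AT1G31100 (181.65) and AT2G01550 (174.82). None of these 7 entries held a glutaraldehyde member, while 23 of all 78 entries hit with formaldehyde (29.5%) did. AT3G60170 held 2 formaldehyde members, and both midpoints there lay in an overlapping transcribed pseudogene as well.

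Of the 10 highest glutaraldehyde members, 5 lay on chromosome 3, 3 on chromosome 1 and 2 on chromosome 5, beside 15, 13 and 20 of all 68 on these chromosomes. The highest, with a score of 238.26, spanned 9692625 to 9693739 in AT3G26483. The third highest, with a score of 168.67, lay further along at 9697451 to 9698239, over the short entry AT3G26486, and had 40.1% of its length inside that entry. AT3G26614, within 100 kb of these and with other entries between, held a peak from 9784835 to 9785567 with a score of 121.87. That these 3 lie in the same stretch of chromosome 3 was noted after their values were seen.

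AT1G53810 held the second highest glutaraldehyde member, with a score of 177.59, from 20086017 to 20086901 on chromosome 1. AT1G25430 held 2 members, with scores of 137.21 and 124.59. The others of the 10 lay in AT5G47815 (135.47), AT3G57586 (131.66), AT3G54823 (130.62) and AT5G43415 (121.53). Of the 10 highest members, 3 with glutaraldehyde and 2 with formaldehyde lay in an entry hit in both libraries. Of all entries hit, 37.7% of those with a glutaraldehyde member and 29.5% of those with a formaldehyde member were hit in both.

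Most entries that were hit held a single member. Formaldehyde midpoints lay in 78 of the 571 arm entries, 13.7%, and glutaraldehyde midpoints in 61, 10.7%, beside 9.66% and 13.6% of the 24061 arm protein-coding genes. One member was held by 67 of the 78 and 54 of the 61 entries, and 116 entries were hit in either library. AT2G17115, an entry of 4947 bp on chromosome 2, held the most, with 3 formaldehyde members of scores 56.81, 51.04 and 97.20. AT2G19100 and AT3G24675 held 2 formaldehyde members each, and AT4G01490, AT1G20390 and AT3G50625 held 2 glutaraldehyde members each.

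Counted per entry, long entries were hit most often in both libraries, and a longer body has more room for a midpoint. Those of 4 kb or more were hit in 29.9% of cases with formaldehyde (43 of 144, interval 22.5 to 38.0%) and in 20.1% with glutaraldehyde (29 of 144, 13.9 to 27.6%). Entries under 1 kb were hit in 5.15% and 4.12% of 194 cases, 10 and 8 entries. The long entries took 0.700 Mb in total and those under 1 kb 0.114 Mb. Per Mb of body the short entries were thus hit more often than the long ones in both libraries, though on few hits. Protein-coding genes of 4 kb or more were hit in 21.4% and 25.5% of 2918 cases. The order of the libraries therefore differed between long pseudogene entries and long coding genes, and the difference was not tested.

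**Figure D2:**
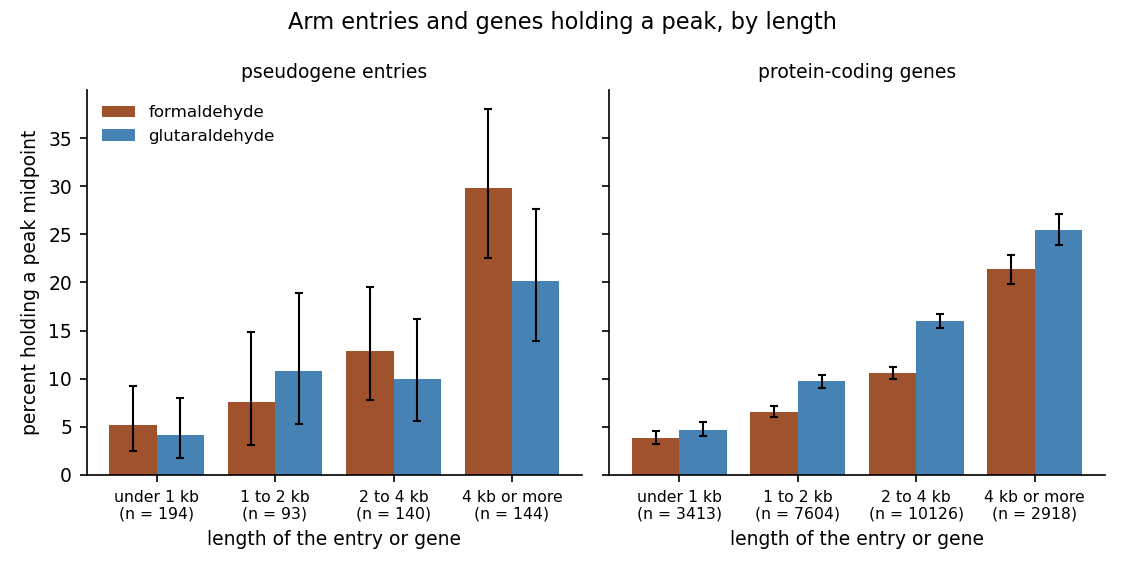
Percent of arm pseudogene entries (left) and arm protein-coding genes (right) holding a peak midpoint, by length class, with formaldehyde in brown and glutaraldehyde in blue; error bars are exact binomial 95% intervals and cover counting error only. In both panels the bars are highest at 4 kb or more, with 29.9% and 20.1% of pseudogene entries and 21.4% and 25.5% of coding genes.

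In both libraries together 23 entries were hit, which was 29.5% of the 78 formaldehyde entries and 37.7% of the 61 glutaraldehyde entries. Of the arm protein-coding genes, 1.78% were hit in both, which was 18.5% of those hit with formaldehyde and 13.1% of those hit with glutaraldehyde. The 23 were long, with a median length of 4443 bp and 16 of 4 kb or more, while the 455 entries hit in neither library had a median of 1550 bp.

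Entries and genes of 4 kb or more were then taken to limit differences in length, with median lengths of 4506 and 5018 bp. Position along the arms was not held level. Glutaraldehyde hit 16 of the 43 long entries that formaldehyde hit (37.2%, interval 23.0 to 53.3%) and 13 of the 101 that it did not (12.9%, 7.04 to 21.0%). Among long protein-coding genes the same shares were 27.8% (24.3 to 31.5%) and 24.8% (23.1 to 26.7%). In the other direction formaldehyde hit 55.2% of the 29 long entries with a glutaraldehyde midpoint (interval 35.69 to 73.55%). It hit 23.5% of the 115 without one (16.08 to 32.29%). Among long coding genes these shares were 23.3% (20.29 to 26.49%) and 20.7% (19.0 to 22.45%). No test of these differences was run, since peak positions in both libraries chose the entries.

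**Figure D3:**
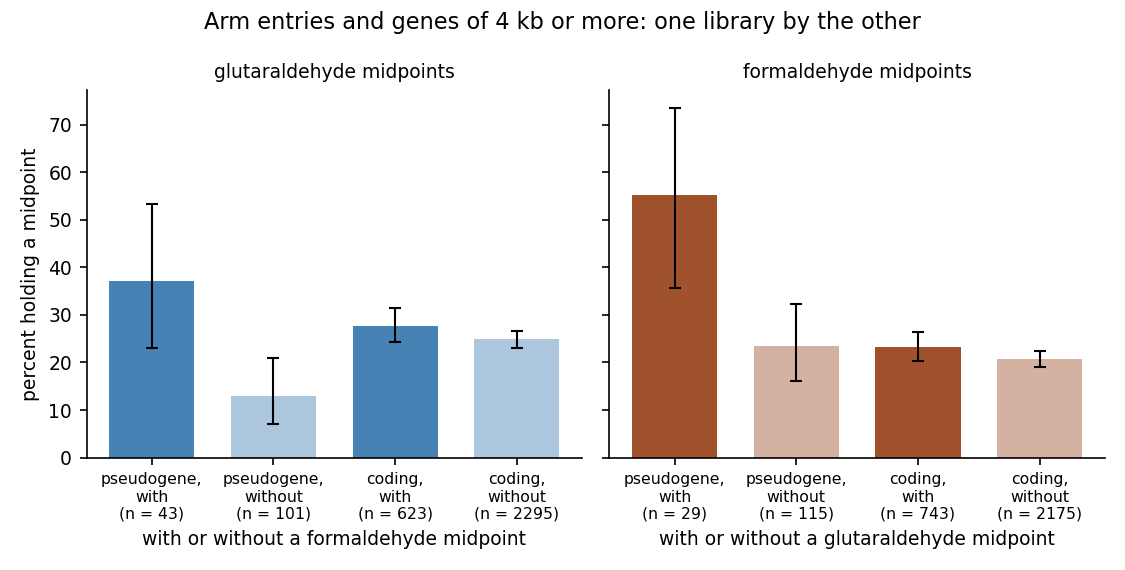
Percent of arm pseudogene entries and protein-coding genes of 4 kb or more that hold a midpoint of one library, split by whether they hold a midpoint of the other (full colour with, pale without); error bars are exact binomial 95% intervals for counting error only. Glutaraldehyde midpoints (left) lay in 37.2% and 12.9% of pseudogene entries with and without a formaldehyde midpoint, and in 27.8% and 24.8% of coding genes.

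Being hit in both libraries did not always mean the same place. In 11 of the 23 entries the peaks of the libraries overlapped, by 176 to 885 bp with a median of 582 bp, and in the other 12 they lay 341 to 2516 bp apart. In 6 of the 11 the glutaraldehyde peak with the higher score lay wholly inside the formaldehyde peak. One entry met a reciprocal overlap of 50%.

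That entry was AT1G53810, where the formaldehyde peak spanned 20085398 to 20086978 with a score of 95.15 and the glutaraldehyde peak, given above, had a score of 177.59. The peaks shared 885 bp. Closest by midpoint was AT4G13120 on chromosome 4, where the formaldehyde peak from 7644002 to 7645701 and the glutaraldehyde peak from 7644559 to 7645141 had midpoints 2 bp apart and scores of 94.02 and 69.95.

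In AT5G07505 the strong formaldehyde peak held a glutaraldehyde peak of score 88.55 from 2376329 to 2377152. In AT5G07215 the formaldehyde peak held both glutaraldehyde members of the entry, with scores of 64.18 and 57.44. The formaldehyde peaks of these entries ranked 52 and 68 of 4557, and the higher glutaraldehyde peaks 1965 and 4053 of 6306. The remaining overlaps lay in AT5G23955 (formaldehyde and glutaraldehyde scores 116.62 and 101.57), AT2G21310 (113.2 and 96.76), AT3G24675 (74.53 and 104.83 for the peaks that met), AT3G14517 (87.33 and 92.72), AT3G17260 (74.80 and 65.51), AT1G29475 (53.29 and 111.1) and AT1G20390 (50.94 and 50.17 for the peaks that met). AT3G24675 held a further formaldehyde member of score 134.42, and AT1G20390 a further glutaraldehyde member of score 77.0.

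**Figure D4:**
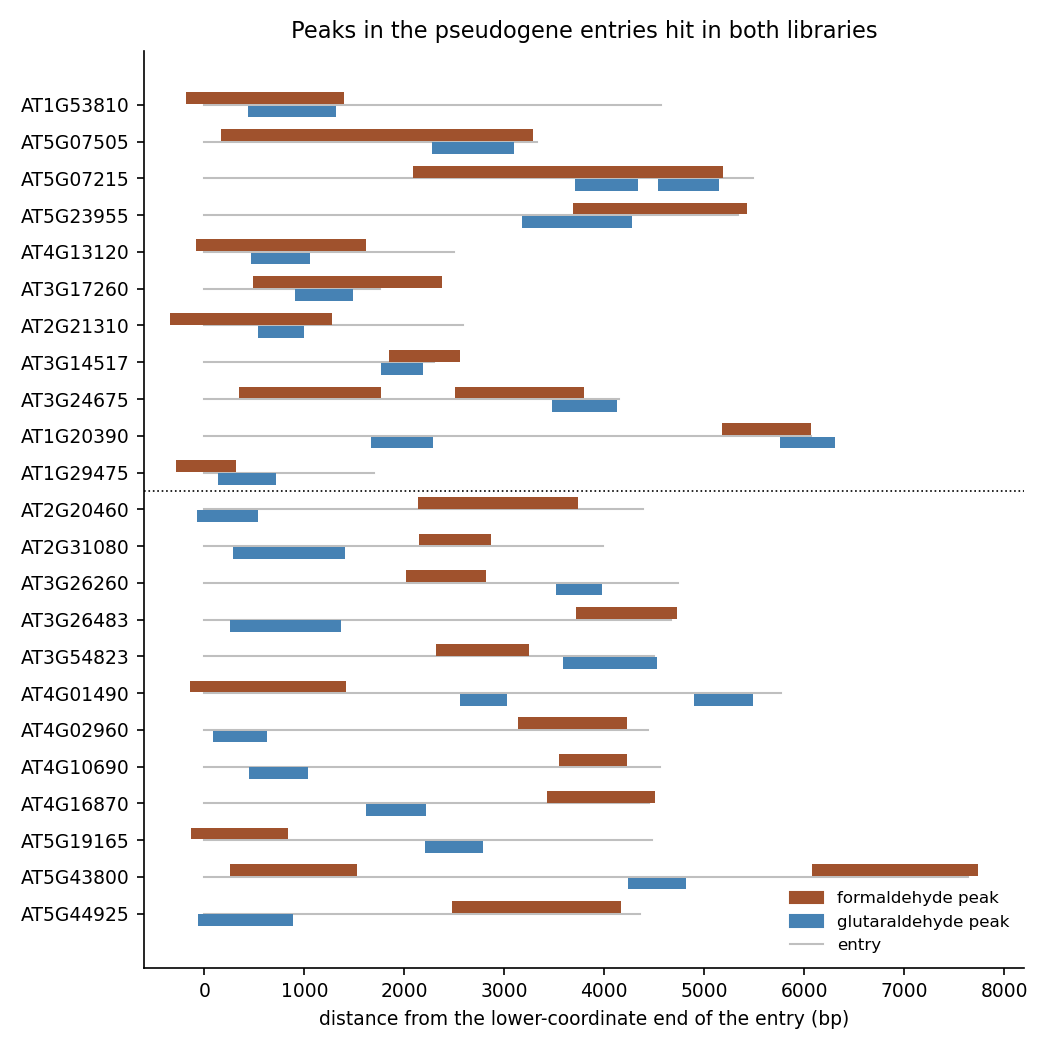
Peaks of the formaldehyde (brown) and glutaraldehyde (blue) libraries in the 23 arm pseudogene entries hit in both, drawn to scale as distance in bp from the lower-coordinate end of each entry (grey line). The peaks overlapped in the 11 entries above the dotted line, and were 341 to 2516 bp apart in the 12 below it.

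Among the 12 entries with separate peaks were AT5G44925, with a score above 100 in each list, and an annotated retroelement. AT5G44925 held a formaldehyde peak of score 133.78 and a glutaraldehyde peak of score 119.1, 1586 bp apart. AT4G02960, named RE2 for retro element 2 in the gene table, spans 1312547 to 1316983 on chromosome 4 and lies near the edge of the pericentromeric interval. Its glutaraldehyde peak from 1312638 to 1313176 had a score of 57.35 and its formaldehyde peak from 1315685 to 1316775 a score of 54.63, so both were low in their lists and lay towards opposite ends of the element, 2508 bp apart.

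AT3G54823 held scores of 115.62 with formaldehyde and 130.62 with glutaraldehyde, 341 bp apart, the smallest gap. AT3G26483 held a formaldehyde peak of 97.96 at the other end from its glutaraldehyde peak of 238.26. The rest were AT4G16870 (111.73 and 68.65), AT5G43800 (106.87 and 51.64), AT2G20460 (77.36 and 61.44), AT5G19165 (75.52 and 58.62), AT4G01490 (72.64 and 78.33), AT4G10690 (61.03 and 71.06), AT2G31080 (58.33 and 90.98) and AT3G26260 (50.6 and 79.37). In 4 of the 23 entries, namely AT5G44925, AT3G54823, AT3G24675 and AT5G23955, both libraries reached a score of 100.

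Of the 16 entries with a symbol, 2 were hit, RE2 and SADHU8-1, beside 20.3% of all 571 arm entries. SADHU8-1 (AT1G50735), a noncoding retrotransposon entry of 887 bp, held a glutaraldehyde member of score 78.93 from 18806490 to 18807320 on chromosome 1 and no formaldehyde member. The other 6 SADHU entries, the 5 MUG entries, CYTOSLEEPER, MEE19 and EXT11 held no member in either library. Among the 5 transfer RNA entries, AT4G22785, of 78 bp, held a glutaraldehyde member of score 71.93 that covered it whole and touched a protein-coding body.

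Counting any peak of the other library, 13 of the 90 formaldehyde members (14.4%, interval 7.92 to 23.4%) overlapped a glutaraldehyde peak by at least 1 bp, beside 10.5% of all formaldehyde arm peaks. Of the 68 glutaraldehyde members, 12 (17.6%, 9.47 to 28.8%) overlapped a formaldehyde peak, beside 6.00% of all glutaraldehyde arm peaks. Wide peaks meet others more easily, and formaldehyde members were wide. Among peaks under 1000 bp, 5 of 39 formaldehyde members (12.8%) and 11 of 62 glutaraldehyde members (17.7%) overlapped, against 9.42% and 5.57% of the other arm peaks of that width. This split limits a peak's own width, but not the width or density of the peaks it could meet in the other library. Formaldehyde midpoints had 69.5 per Mb of pseudogene body against 33.7 per Mb of all arm sequence. The glutaraldehyde shares are therefore not like for like, and the difference was not tested.

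Midpoints lay throughout the entries. The distance from the midpoint to the nearer end of the entry had a median of 0.241 of the entry length with formaldehyde and 0.217 with glutaraldehyde, where an even spread gives 0.25. The whole peak lay inside the entry for 52 of 90 formaldehyde and 45 of 68 glutaraldehyde members. A protein-coding body was touched by 4 and 1 members, among them the formaldehyde peak in AT4G16870, which reached RPP4, a disease resistance gene of the NBS-LRR class. The median distance from the peak to the nearest protein-coding gene was 1800 bp with formaldehyde and 1828 bp with glutaraldehyde.

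Along the arms, the formaldehyde density was higher within 2 Mb of the pericentromeric intervals than beyond, with intervals of the 4 steps that all overlapped. Within 1 Mb of the intervals formaldehyde had 31 members, 97.4 per Mb of pseudogene body (exact Poisson 95% interval 66.2 to 138), from 1 to 2 Mb 95.3 (59.7 to 144), from 2 to 5 Mb 53.8 (33.7 to 81.5) and beyond 5 Mb 44.5 (24.9 to 73.5). Over all arm sequence the formaldehyde density was 39.9, 36.4, 33.5 and 31.9 peaks per Mb in the same steps. The ratio of the first to the second was 2.44, 2.62, 1.61 and 1.40.

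Glutaraldehyde had 53.4, 69.3, 53.8 and 38.6 members per Mb of pseudogene body in the same steps, with intervals that all overlapped (20.6 to 113 over the 4 steps), and 58.7, 57.7, 59.3 and 59.7 peaks per Mb over all arm sequence. Its ratios were 0.910, 1.20, 0.907 and 0.647. The formaldehyde ratio was above 1 in all 4 steps, and the intervals of its 2 outer steps began at 33.7 and 24.9, beside 33.5 and 31.9 for all arm sequence.

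**Figure D5:**
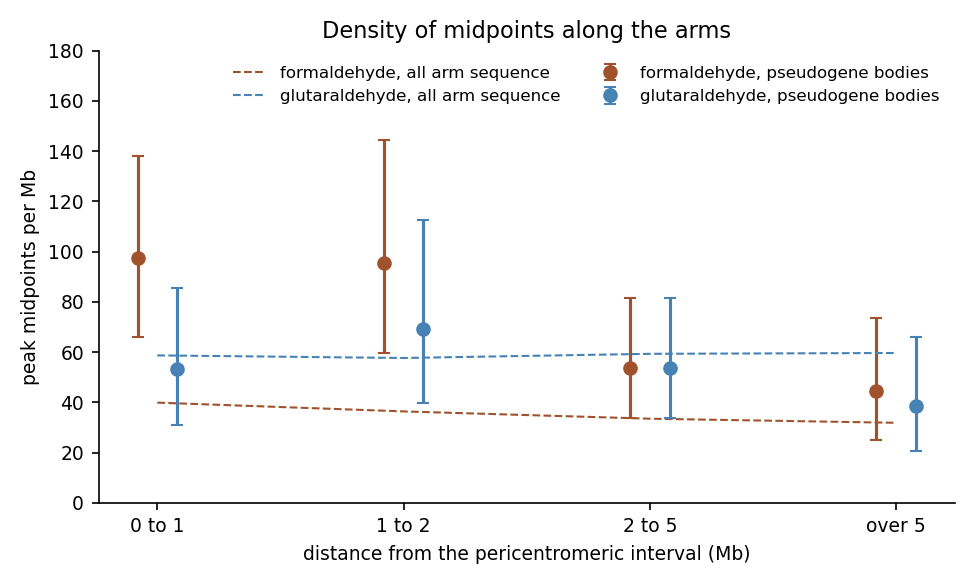
Peak midpoints per Mb of pseudogene body (points, with exact Poisson 95% intervals for counting error only) and per Mb of all arm sequence (dashed lines) at 4 distances from the pericentromeric interval, for formaldehyde (brown) and glutaraldehyde (blue). The formaldehyde points lie above their dashed line at every distance, from 97.4 against 39.9 within 1 Mb to 44.5 against 31.9 beyond 5 Mb, and the glutaraldehyde points lie on both sides of theirs.

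The numbers of members differed between chromosomes, and are given here without counting intervals or a test. On chromosome 2 the formaldehyde library had 25 members, 5.07% of its arm peaks there, and hit 21 of 96 entries (21.9%). On chromosome 1 it had 15 members, 1.97% of its arm peaks, and hit 15 of 165 entries (9.09%). Chromosomes 3, 4 and 5 had 16, 17 and 17 formaldehyde members. Glutaraldehyde hit the largest share on chromosome 5, 18 of 105 entries (17.1%), and the smallest on chromosome 1, 10 of 165 (6.06%). On chromosome 2 it hit 9 of 96 (9.38%). Entries hit in both libraries numbered 3 on chromosome 1, 3 on chromosome 2, 6 on chromosome 3, 5 on chromosome 4 and 6 on chromosome 5.

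The interval boundaries set which peaks count as members. The formaldehyde member closest to a boundary lay 26.0 kb outside it in AT2G03540 with a score of 51.29, and the closest peak left out lay 21.5 kb inside one in AT1G47950 with a score of 110.23. For glutaraldehyde the closest member lay 169.7 kb outside in AT4G10460 with a score of 60.21, and the closest peak left out, 20.8 kb inside, was also in AT1G47950 with a score of 98.06. Inside the intervals 603 formaldehyde and 201 glutaraldehyde peaks met the rest of the rule.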

How the data were processed

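Peak lists of the 2 tagged-probe libraries were analysed. Per the submitters' processing notes, the authors' tools were MACS 1.4.2 and Bowtie2 2.1.0, on TAIR10. The sources used here do not state the control behind the peak calls, the read depth or the handling of reads that align to several places, on which calls in repeated sequence depend. The authors deposited a score for each peak, which was read within its list, where the lowest values were 50.02 and 50.0, apart from a correlation between the lists given as a description. The other deposited values are peak starts and ends in bp. Depth is unknown, so precision is given for counts alone, as exact binomial or Poisson 95% intervals. Peaks were printed counted from 1.

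Gene bodies came from the RefSeq table of TAIR10.1, taken to share the nuclear coordinates of TAIR10. Its biotype pseudogene defined the entries, and transcribed_pseudogene was neither member nor bar. The planned classes of entry by description were not made, since the table has no descriptions, and it holds no sequence, exons or strand. An entry counted as hit if it held a member midpoint, and as an arm entry by its own midpoint. Each chromosome was counted as far as its outermost peak or gene. The classification was checked on planted positions. Work was done in Python 3.11.15 with pandas 2.3.3 and scipy 1.17.1.

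Members, entries and named items were chosen with earlier results of these data known. Named were the entries hit in both libraries, the 10 highest members of each library, up to 5 entries with the most members (ties by score) and the peaks next to the interval boundaries. The 16 entries with a symbol and the entry AT4G22785 were added after their values were seen. Alternatives were a score floor, other assignment rules, moved intervals, stricter overlap and each library alone, and the transcribed_pseudogene entries and the ratios to length were added after the data had been seen.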

Additional observations from a re-analysis of the deposited data

How the results depend on the processing

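With a score of 100 or more, 29 formaldehyde and 16 glutaraldehyde members remained, the formaldehyde share was 4.57% and 3.11 times that of length, and 4 entries were hit in both. Widening the intervals by 1 Mb left 59 formaldehyde members (2.30%), and narrowing them gave 190 (5.53%) and 122 (2.13%) members and 45 entries in both. With transcribed_pseudogene entries the shares were 4.12% and 1.99%, with 104 glutaraldehyde members and 180 entries hit in either library. Asking that member peaks overlap left 11 entries in both, and 1 at 50% of each peak. Using 1 library alone gave 61 to 78 entries against 116 in either. The counts differ by construction, through fewer or more peaks or entries admitted. The shares with transcribed_pseudogene entries could likewise only rise, since members were added over the same arm peaks. Moving the intervals also changed the part of the arm length that pseudogene bodies take. The ratio to length allows for this part, and with formaldehyde it was 1.84 with wider and 2.175 with narrower intervals. The share and ratio under the score floor are not set by construction. At a score of 100 or more the formaldehyde share rose from 3.04%, and its ratio to length from 2.07, to the values above. The other 29 of 48 values stayed within 1.5 times the count or within the counting interval of the share, and the ratio to length stayed above 1 with formaldehyde (1.84 to 3.11) and below 1 with glutaraldehyde (0.839 to 0.979) in all 4 settings tried for it. No paired analysis was possible because the probe libraries form a single group and no file of a mock or input library entered. Unknown depth limits every comparison of numbers of peaks between the libraries.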

Other observations

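Entries of the neighbouring biotype, transcribed pseudogenes, held 32 formaldehyde and 36 glutaraldehyde arm peaks with the midpoint in no other listed body. That was 64.2 and 72.3 midpoints per Mb of such bodies, against 33.7 and 59.3 per Mb of all arm sequence. The formaldehyde share, 1.08% of arm peaks (exact binomial 95% interval 0.740 to 1.52%), lay above the 0.566% of arm length that these bodies take, and the interval of the glutaraldehyde share, 0.690% (0.484 to 0.954%), included it. No test was run.

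Across the 23 entries hit in both libraries, which share neither a score scale nor a width, the best scores of the libraries had a Spearman's rho of 0.254 and a Pearson's r of 0.131 on log10 scores, given as a description. The best formaldehyde score had a median of 94.0 in these entries and 81.7 in the 55 hit with formaldehyde alone. The best glutaraldehyde score had a median of 79.4 against 72.5 in the 38 hit with glutaraldehyde alone. The quartiles of these groups overlapped in both libraries.

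Formaldehyde members in AT2G23880 (score 87.69) and AT2G21000 (66.66) overlapped glutaraldehyde peaks whose midpoints lay outside the set. On chromosome 2, the neighbouring entries AT2G16670, AT2G16680 and AT2G16690, within 13.3 kb just outside the pericentromeric interval, each held 1 formaldehyde member and no glutaraldehyde member. On chromosome 1, AT1G30975, AT1G31030 and AT1G31100 lay within 52.2 kb and held 2 formaldehyde members and 1 glutaraldehyde member. These were the 2 runs of at least 3 hit entries with gaps of at most 50 kb, a measure chosen after the values were seen.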
